A study of Homo sapiens with 24 samples.

Results

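Keratin genes were followed through the H3K27ac maps of 2 human mammary epithelial lines, before and after knockdown of ANCO1. A keratin region was any region of the 6 deposited tables whose overlapped or flanking genes, the latter within 10 kb, included a symbol made of KRT, digits and an optional letter A, B or C. Keratin-associated protein genes and keratin pseudogenes were left out. The rule found 245 keratin regions among the 171345 regions of the 6 tables, and 27 of 55 keratin genes looked up were named in at least 1 table. The tables of shANCO1 against shCTRL, which give change, held 60 keratin regions of 50284 in 10A and 64 of 44790 in DCIS. The tables of each immunoprecipitate against input, which give marking, held 31 in 10A shANCO1, 25 in 10A shCTRL, 34 in DCIS shANCO1 and 31 in DCIS shCTRL.

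The libraries numbered 24 and formed 8 groups of 3. These crossed the line, MCF10A (10A) or MCFDCIS (DCIS), with a short hairpin RNA, shANCO1 or the control shCTRL. They also crossed both with H3K27ac immunoprecipitation or input, sonicated chromatin that was not pulled down. The deposited comparisons name the control shGFP, which was taken to be the shCTRL group of the labels. 10A is a non-tumorigenic breast epithelial line and DCIS is a transformed derivative of it that forms lesions resembling ductal carcinoma in situ. All groups carried a lentiviral hairpin and grew in DMEM/F12 with horse serum, epidermal growth factor, hydrocortisone, insulin and cholera toxin. The ANCO1 knockdown used for H3K27ac was 1 hairpin line, and a second hairpin was not analysed here. The tables gave no ANKRD11 level, so the knockdown itself was not checked.

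Keratins are the intermediate filament proteins of epithelia. A filament is built from pairs of 1 type I keratin, acidic and mostly encoded in a cluster on chromosome 17, and 1 type II keratin, basic and encoded in a cluster on chromosome 12 (KRT18, a type I gene, lies at the edge of that cluster beside KRT8). Which pair a cell makes follows its type: KRT5 with KRT14 in basal cells of the mammary duct and epidermis, KRT8 with KRT18, and KRT7 or KRT19, in luminal and other simple epithelia, KRT6 with KRT16 or KRT17 in activated and wound-edge keratinocytes, KRT1 with KRT10 in suprabasal epidermis and KRT4 with KRT13 in stratified mucosa. H3K27ac, acetylation of lysine 27 of histone H3, marks active promoters and enhancers, so a change near a keratin gene is a change of that mark and not a measure of keratin RNA or protein.

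A change is given as the deposited log2 fold change of 1 representative window of a region, shANCO1 over shCTRL, and the test as the deposited false discovery rate (FDR), which the authors' window-based test computed over all regions of a table. A region was called up or down where its FDR was under 0.05 and the table gave that direction. Windows are the overlapping stretches tested within a region. No value per library was in the tables, so the depth and the spread between the 3 libraries of a group are unknown, and a fold change carries no standard error here. In bulk chromatin, more cells with the mark and more mark per cell cannot be told apart. Regions named for 2 or more keratins numbered 23 in 10A and 30 in DCIS, and 14 and 26 keratin regions overlapped a neighbouring one, so regions of a locus are not independent of each other. A region named for keratins of 2 classes is counted in each of them below, so the class counts overlap.

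The epithelial label was checked against enriched regions near marker genes. EPCAM, CDH1, GRHL2, TP63, KRT5, ITGB4 and LAMB3 each had at least 1 region enriched over input in every group. KRT14, a defining basal marker, had none in any of the 4 groups, nor had the luminal gene ELF5, the fibroblast gene COL1A2 or the leukocyte genes PTPRC and CD3E. KRT17 had none in 10A. The luminal genes GATA3, KRT8 and KRT18 had enriched regions in every group. KRT19 had them in every group but 10A shCTRL, and FOXA1 in the shANCO1 groups alone. The fibroblast gene PDGFRA had 12 enriched regions in 10A shANCO1 against 1 in shCTRL, and 2 against 0 in DCIS, COL1A1 had 2 against 0 and 1 against 0, and PDGFRB had 1 in 10A shANCO1 alone. The part of these genes in the keratin results was not tested.

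The stretches on which the results turn are shown first, each as up to 300 bases at the middle of a region, read from GRCh38 on the forward strand. Capitals mark matches, on either strand, to the letters TGACTCA, bound by the factor AP-1, to GGAATG, bound by factors of the TEAD family, or to TATAAA, the core of a TATA box. The element between KRT75 and KRT6B had the lowest FDR and the largest increase of any keratin region in DCIS, and its middle lies at chr12:52441651-52441950, where the annotation has no gene.
KRT75-KRT6B element: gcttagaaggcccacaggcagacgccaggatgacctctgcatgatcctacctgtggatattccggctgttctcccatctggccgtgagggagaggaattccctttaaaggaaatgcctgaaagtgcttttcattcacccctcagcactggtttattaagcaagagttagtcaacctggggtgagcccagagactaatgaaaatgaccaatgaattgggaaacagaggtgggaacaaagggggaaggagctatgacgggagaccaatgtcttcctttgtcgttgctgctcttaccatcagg
The region with the second-largest increase in DCIS lies between KRT9 and KRT14, with its middle at chr17:41580401-41580700, also between genes.
KRT9-KRT14 element: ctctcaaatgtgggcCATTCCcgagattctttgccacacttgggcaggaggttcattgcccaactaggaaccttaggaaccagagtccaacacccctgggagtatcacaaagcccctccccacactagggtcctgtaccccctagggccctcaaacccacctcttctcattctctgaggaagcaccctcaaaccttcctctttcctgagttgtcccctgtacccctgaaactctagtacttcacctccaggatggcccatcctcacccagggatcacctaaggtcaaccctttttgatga
The region over the start of KRT80 in 10A has its middle at chr12:52193001-52193300, upstream of the gene and in an intron of the long noncoding RNA gene LINC00592.
KRT80 start region: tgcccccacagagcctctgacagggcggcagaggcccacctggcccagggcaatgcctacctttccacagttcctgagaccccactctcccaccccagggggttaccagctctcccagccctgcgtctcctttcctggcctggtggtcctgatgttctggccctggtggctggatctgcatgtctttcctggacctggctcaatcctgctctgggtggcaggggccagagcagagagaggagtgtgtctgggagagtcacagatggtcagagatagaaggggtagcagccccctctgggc
A stretch beyond the 3′ end of KRT13 rose in both lines, and its middle in 10A is chr17:41500351-41500650, between genes.
KRT13 3′ element: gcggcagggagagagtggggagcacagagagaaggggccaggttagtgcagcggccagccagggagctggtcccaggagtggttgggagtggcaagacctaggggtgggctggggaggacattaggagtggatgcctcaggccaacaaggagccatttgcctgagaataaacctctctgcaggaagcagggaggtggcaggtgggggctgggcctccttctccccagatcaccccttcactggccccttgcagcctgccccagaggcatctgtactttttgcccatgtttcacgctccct
The only keratin region called down lies upstream of KRT10 in DCIS, with its middle at chr17:40828201-40828500, over an exon of the antisense gene KRT10-AS1.
KRT10 upstream element: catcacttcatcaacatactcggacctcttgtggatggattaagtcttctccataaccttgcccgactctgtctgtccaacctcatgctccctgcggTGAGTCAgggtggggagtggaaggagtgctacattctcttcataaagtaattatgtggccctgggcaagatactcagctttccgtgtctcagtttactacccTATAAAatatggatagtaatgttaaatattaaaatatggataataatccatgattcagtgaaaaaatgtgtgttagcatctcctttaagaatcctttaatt
The region with the lowest FDR in 10A, upstream of KRT15, holds an AP-1 match at chr17:41521808-41521834, shown with 10 bases on each side.
KRT15 upstream AP-1 match: tggagcaagaTGACTCAcaggaaatgc
For KRT5 and KRT8 the 250 bases before the RefSeq start (GRCh38.p14, reverse strand, 5′ to 3′ along the gene) are shown because a called region in 10A covers or touches each. The RefSeq start of KRT8 used here is an upstream one, and the called region just before it lies 21425 bp upstream of the canonical start.
KRT5 promoter: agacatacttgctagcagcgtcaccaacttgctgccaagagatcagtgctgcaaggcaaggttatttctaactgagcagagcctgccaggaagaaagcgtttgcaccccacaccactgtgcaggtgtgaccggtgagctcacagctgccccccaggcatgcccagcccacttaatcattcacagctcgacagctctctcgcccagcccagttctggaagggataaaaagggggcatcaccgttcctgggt
KRT8 upstream promoter: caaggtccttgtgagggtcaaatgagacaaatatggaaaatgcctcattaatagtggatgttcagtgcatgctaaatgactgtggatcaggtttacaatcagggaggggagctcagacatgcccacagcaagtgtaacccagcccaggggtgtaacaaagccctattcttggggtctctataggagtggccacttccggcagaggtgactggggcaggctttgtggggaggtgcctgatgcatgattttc

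The AP-1 letters were found in the middle 300 bases of 10 of 60 keratin regions in 10A (16.7%, against 11.1% of all 50284 regions) and of 7 of 64 in DCIS (10.9%, against 9.4%). The TEAD letters were in 11 keratin regions of each line (18.3% and 17.2%, against 18.0% and 17.4% of all regions). TATAAA was in 4 keratin regions of 10A and 1 of DCIS (6.67% and 1.56%, against 17.7% and 13.0%). RefSeq held 38 promoters for 34 of the keratin genes, and 21 of them held TATAAA (55.3%, against 11.5% of all 35116 promoters of the same 300-base length, which run from 250 bases before the start to 50 after it), while none held TGACTCA (4.95% of all) and 6 held GGAATG (15.8%, against 14%). These are matches of letters and describe neither binding nor a cause.

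In 10A, H3K27ac at keratin genes rose broadly after ANCO1 knockdown. Of the 60 keratin regions, 37 were called up (61.7%, against 43.6% of all regions of the line) and 0 were called down (0.225% of all), and no keratin region reached an unadjusted p under 0.05 in the down direction by the deposited test. The log2 fold change ran from -0.65 to 1.65 with a median of 0.95, beside a median of 0.76 over all regions. Of the 60 values 59 lay above 0 (98.3%, against 91.8% of all regions). The keratin changes thus sat on a shift of the whole line: 40 of the 60 regions lay above the line's median. None lay 1 or more above it (against 1.14% of all regions), and 3 of the 37 called up lay below it. Called up near at least 1 region were 22 of the 24 keratin genes with a region in 10A, all but KRT10 and KRT24. The like share over all genes was not computed, and a gene with several regions has more chances of a call. For KRT4, KRT6B, KRT16, KRT75 and KRT83 the call lay only beside the gene, in a region shared with another keratin.

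In DCIS the same comparison gave few calls at keratin genes. Of the 64 keratin regions, 10 were called up (15.6%, against 23.6% of all regions of the line) and 1 was called down (1.56%, against 4.86%). The log2 fold change ran from -1.76 to 2.16 with a median of 0.52, the same as over all regions. Of the 64 values 42 lay above 0 (65.6%, against 66.9% of all regions). Of these regions 14 lay 1 or more below the line's median, and so did 20.6% of all regions. Another 4 lay 1 or more above it, against 16.5% of all regions, and those 4 were all called up. An up call was near 11 of the 22 keratin genes with a region in DCIS, again with no like share over all genes. For KRT6B, KRT9, KRT36, KRT75 and KRT83 that call lay only beside the gene. Keratin regions were also wider than the rest: the median width was 1300 bp in 10A and 2250 bp in DCIS, beside 1000 and 900 bp over all regions, and the part of width in the calls was not tested.

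**Figure D1:**
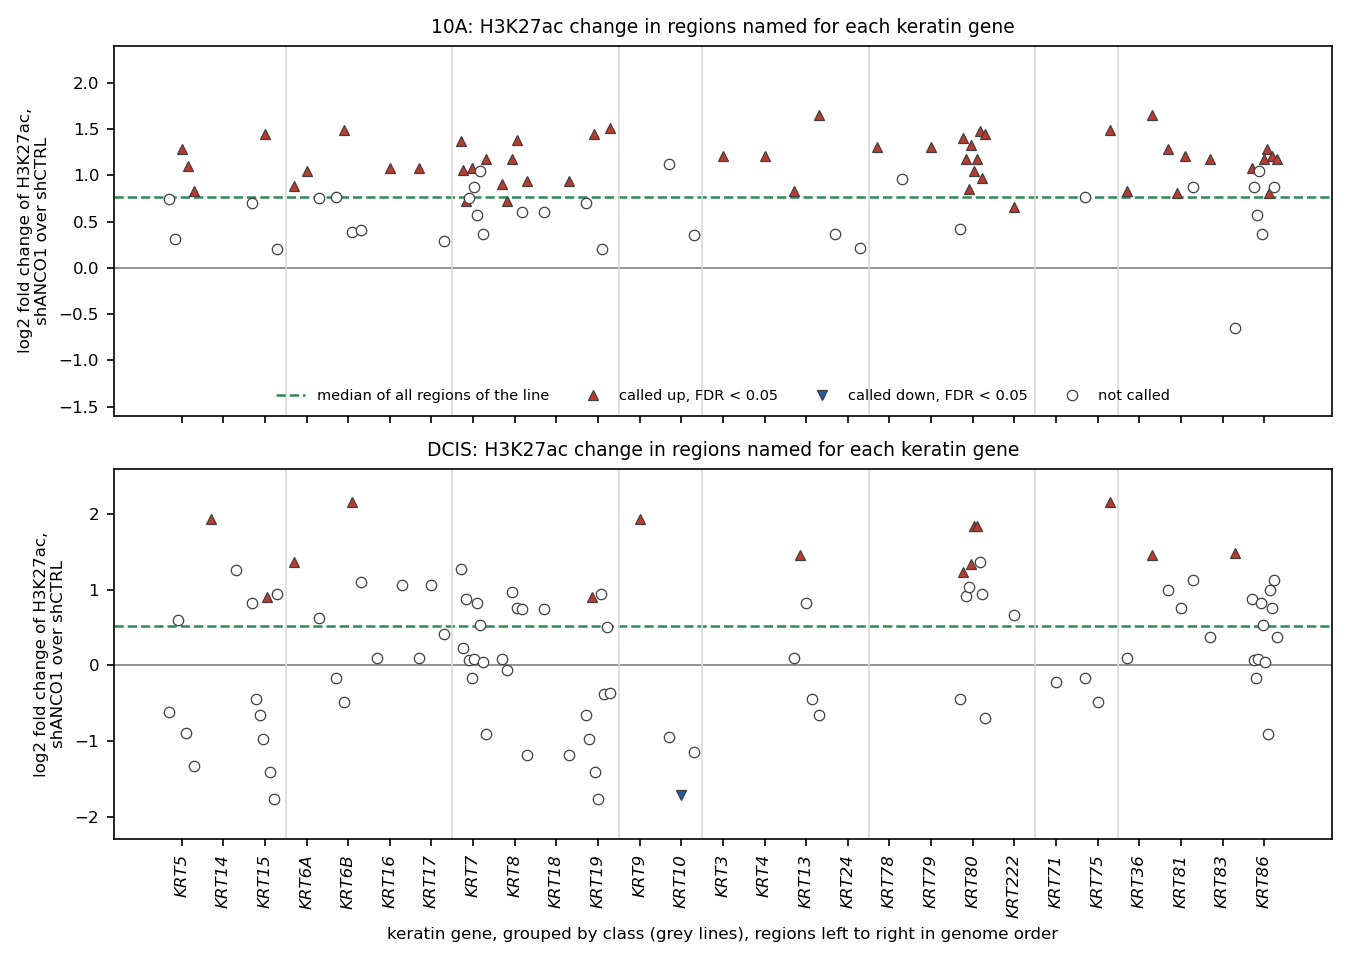
H3K27ac change of every keratin region, shANCO1 over shCTRL, as log2 fold change (y axis) by keratin gene (x axis, grouped by class), for 10A (upper plot) and DCIS (lower plot). A region named for 2 genes appears under both; triangles mark calls at an FDR under 0.05 and the dashed line is the median of all regions of the line, 0.76 in 10A and 0.52 in DCIS. In 10A all but 1 value lie above 0, as do 91.8% of all regions of the line, while in DCIS values run from -1.76 to 2.16.

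By H3K27ac over input, the length of enriched sequence at keratin genes grew in 10A and stayed near its level in DCIS. In 10A the enriched keratin regions covered 18.8 kb in shCTRL and 40.5 kb in shANCO1. By count these regions went from 25 to 31, while the list of regions over the whole genome grew from 15490 to 28607. The keratin share of the list was thus 0.161% in shCTRL and 0.108% in shANCO1. All 25 keratin regions of shCTRL overlapped a shANCO1 region, as did 94.3% of all shCTRL regions. In the other direction 17 of the 31 keratin regions of shANCO1 overlapped a shCTRL one (54.8%, against 41.7% of all shANCO1 regions). Their median width was 600 bp in shCTRL and 1000 bp in shANCO1, beside 400 and 600 bp over all listed regions. Median log2 enrichment at the keratin regions was 3.24 and 3.45, beside 3.32 and 3.4. In DCIS the covered length was 43.3 kb in shCTRL and 45.4 kb in shANCO1. The median widths were 800 and 700 bp, beside 500 bp over all listed regions of each group. Median log2 enrichments in DCIS were 4.31 and 4.46, beside 4.09 and 4.47. There 23 of 31 keratin regions of shCTRL overlapped a shANCO1 one (74.2%, against 71.8% of all) and 22 of 34 the other way (64.7%, against 64.6%), so the keratin shares lay near those of the line.

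Set against the regions tested for change, 18 keratin regions of 10A overlapped an enriched region in shCTRL (30%, against 23.5% of all regions) and 26 in shANCO1 (43.3%, against 45.2%). In DCIS 26 did so in shCTRL (40.6%, against 27%) and 30 in shANCO1 (46.9%, against 30.3%). Of the 8 keratin regions of 10A enriched in shANCO1 only, 7 were called up, beside 68.8% of all such regions, which were picked on a measure close to the change itself. Called up were 15 of the 18 keratin regions enriched in both groups (66.2% of all such regions) and 15 of the 34 enriched in neither (24.1%). In DCIS the counts were 4 of 7 for shANCO1 only (65.9%), 2 of 23 for both (15.2%), 4 of 31 for neither (22.6%) and 0 of 3 for shCTRL only (0.785%). The lists of enriched regions were called separately in each group, so covered length also moves with how much was called: the regions listed over input numbered 15490 in 10A shCTRL, 28607 in 10A shANCO1, 15482 in DCIS shCTRL and 16692 in DCIS shANCO1.

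**Figure D2:**
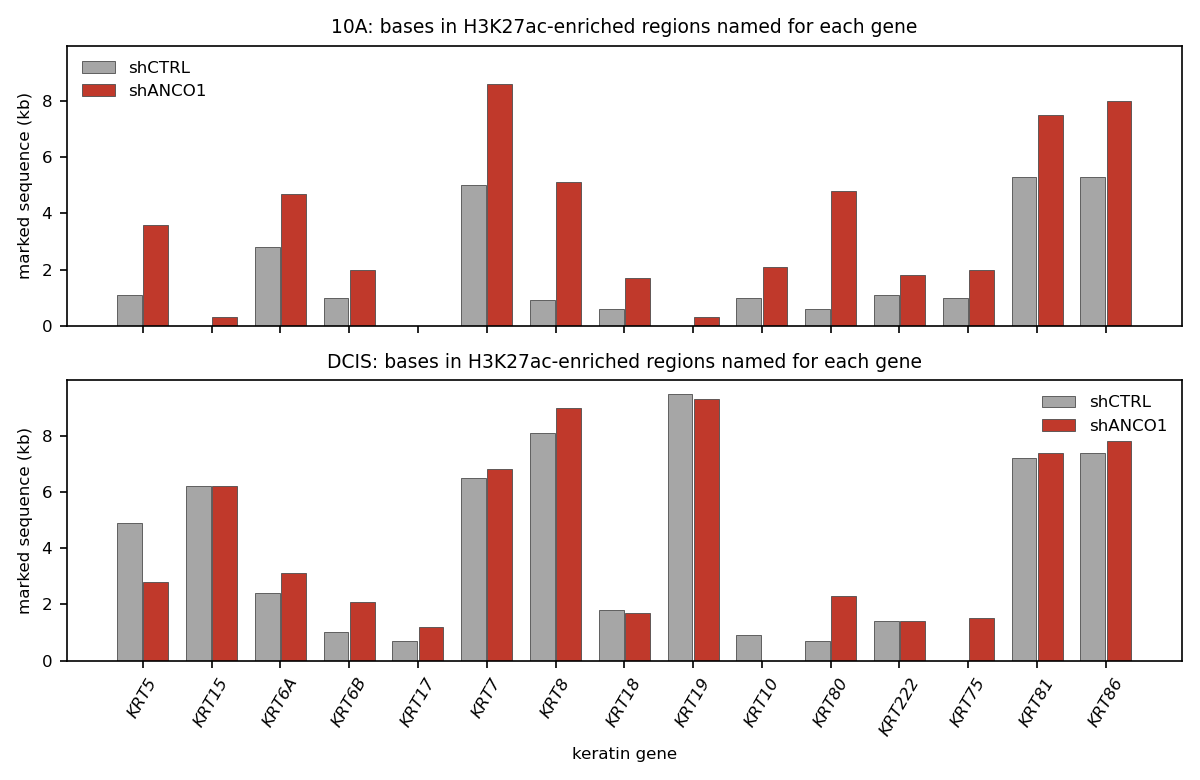
Length of sequence in H3K27ac-enriched regions (kb, y axis) named for each keratin gene (x axis) in shCTRL (grey) and shANCO1 (red), for 10A (upper plot) and DCIS (lower plot). Bars are sums over merged regions of a group of 3 libraries and carry no error bar because the tables hold no value per library. In 10A every gene with a bar has the taller one in shANCO1; in DCIS KRT5, KRT18, KRT19 and KRT10 have the taller one in shCTRL.

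Of the 60 keratin regions of 10A, 49 overlapped a region tested in DCIS (81.7%, against 58.2% of all 10A regions). Among these pairs 8 were called up in both lines (16.3%, and also 16.3% of all 29259 such pairs), 24 in 10A alone (49%, against 33.7%) and 2 in DCIS alone (4.08%, against 12.8%). A further 1 was called down in DCIS alone (2.04%, against 1.58%), and 14 were called in neither (28.6%, against 34.4%). Both values lay above 0 in 37 pairs, and in 11 the 10A value was above 0 and the DCIS value below. The like shares of signs over all pairs were not computed. The difference between the lines was not tested, since each line has its own table with its own scaling.

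**Figure D3:**
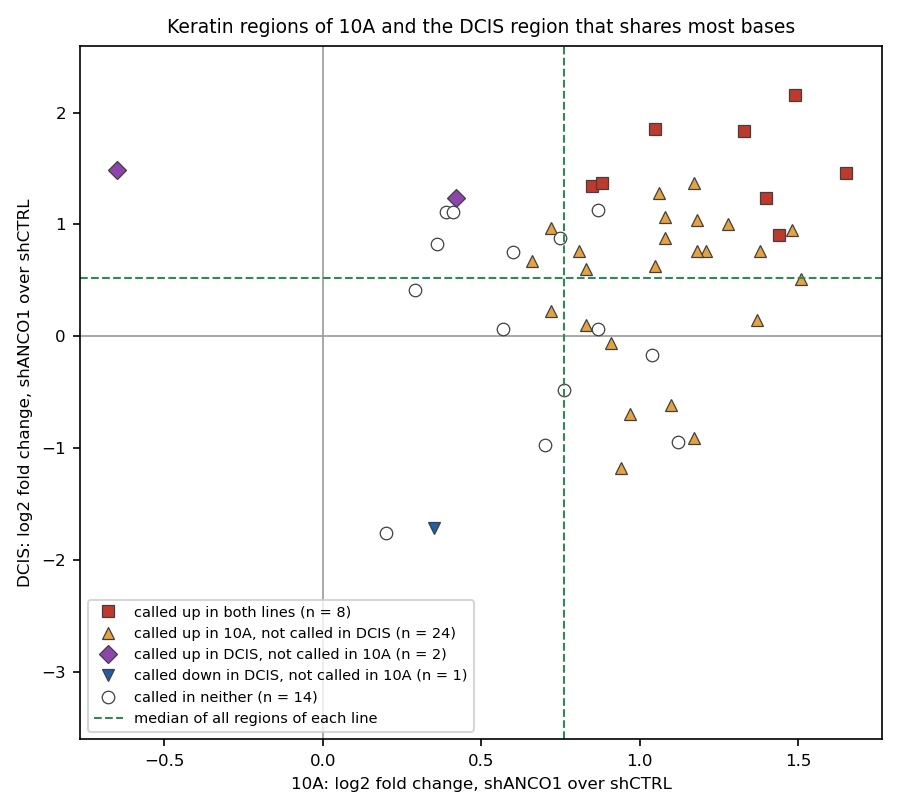
Each point is 1 of the 49 keratin regions of 10A that overlap a region tested in DCIS, with its log2 fold change in 10A (x axis) and that of the DCIS region sharing most bases (y axis), both shANCO1 over shCTRL. Dashed lines are the medians of all regions of each line. The 8 regions called up in both lines (squares) lie at 0.85 or more in 10A and at 0.91 or more in DCIS.

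Of the basal keratin regions 4 of 8 were called up in 10A (median 0.79) and 2 of 14 in DCIS (median -0.53). Among all regions 43.6% were called up in 10A (median 0.76) and 23.6% in DCIS (median 0.52). KRT5, the type II partner of basal cells, had 5 regions in 10A, of which 3 were called up. The region over its start, chr12:52518101-52521900, which holds the promoter shown above, had a log2 fold change of 1.10 (0.34 above the line's median) at an FDR of 0.00111, with 4 of its 37 windows up. Enriched sequence at KRT5 covered 1.1 kb in 10A shCTRL and 3.6 kb in shANCO1. In DCIS the region over the start, chr12:52518201-52522300, stood at -0.61 with an FDR of 0.456, and none of the 4 KRT5 regions was called. The lowest FDR among those, 0.111, belonged to a region upstream of the gene with a log2 fold change of -1.33. The region next to the start, chr12:52522201-52526300, stood at 0.60 (FDR 0.769), and the remaining one at -0.89 (FDR 0.205). Enriched sequence at KRT5 covered 4.9 kb in DCIS shCTRL and 2.8 kb in shANCO1, the opposite order to 10A.

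KRT14, the type I partner of KRT5, had no region in any 10A table. In DCIS 2 regions named it. The element between KRT9 and KRT14, chr17:41579301-41581800, which lies beyond the 3′ end of KRT14 with its near edge 5095 bp from the start of that gene, rose by 1.94 on the log2 scale (1.42 above the line's median) at an FDR of 0.00155, with 10 of 22 windows up. The second region, chr17:41584001-41584400, inside the gene, stood at 1.26 with an FDR of 0.0897, although all 3 of its windows were counted up. Neither overlapped a region enriched over input in shANCO1 or shCTRL. The element is the only region naming KRT9, the type I keratin of palm and sole epidermis, and its near edge lies 7242 bp from the KRT9 start.

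KRT15, a type I keratin of basal and progenitor cells, lies next to KRT19 with only a short gap, so most regions named both. Of all keratin regions of 10A, the lowest FDR belonged to chr17:41520801-41523100, which lay 1911 bp upstream of the canonical KRT15 start and held the AP-1 match shown above. The annotated bounds of KRT15, 41513745 to 41522529, include that match. The region had a log2 fold change of 1.44 (0.68 above the line's median) at an FDR of 5.91e-06, with 7 of 22 windows up. Enriched sequence there was 0.3 kb, 41522001 to 41522300, in shANCO1 and none in shCTRL. In DCIS the KRT15 start itself was already marked: enriched sequence named for KRT15 covered 6.2 kb in both groups. The DCIS region chr17:41521301-41525300, upstream of the start, was called up at an FDR of 0.0286 with a log2 fold change of 0.91, but 3 of its 38 windows were up and 3 were down. Its neighbour over the start, chr17:41517301-41521400, stood at -0.97 with an FDR of 0.154.

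**Figure D4:**
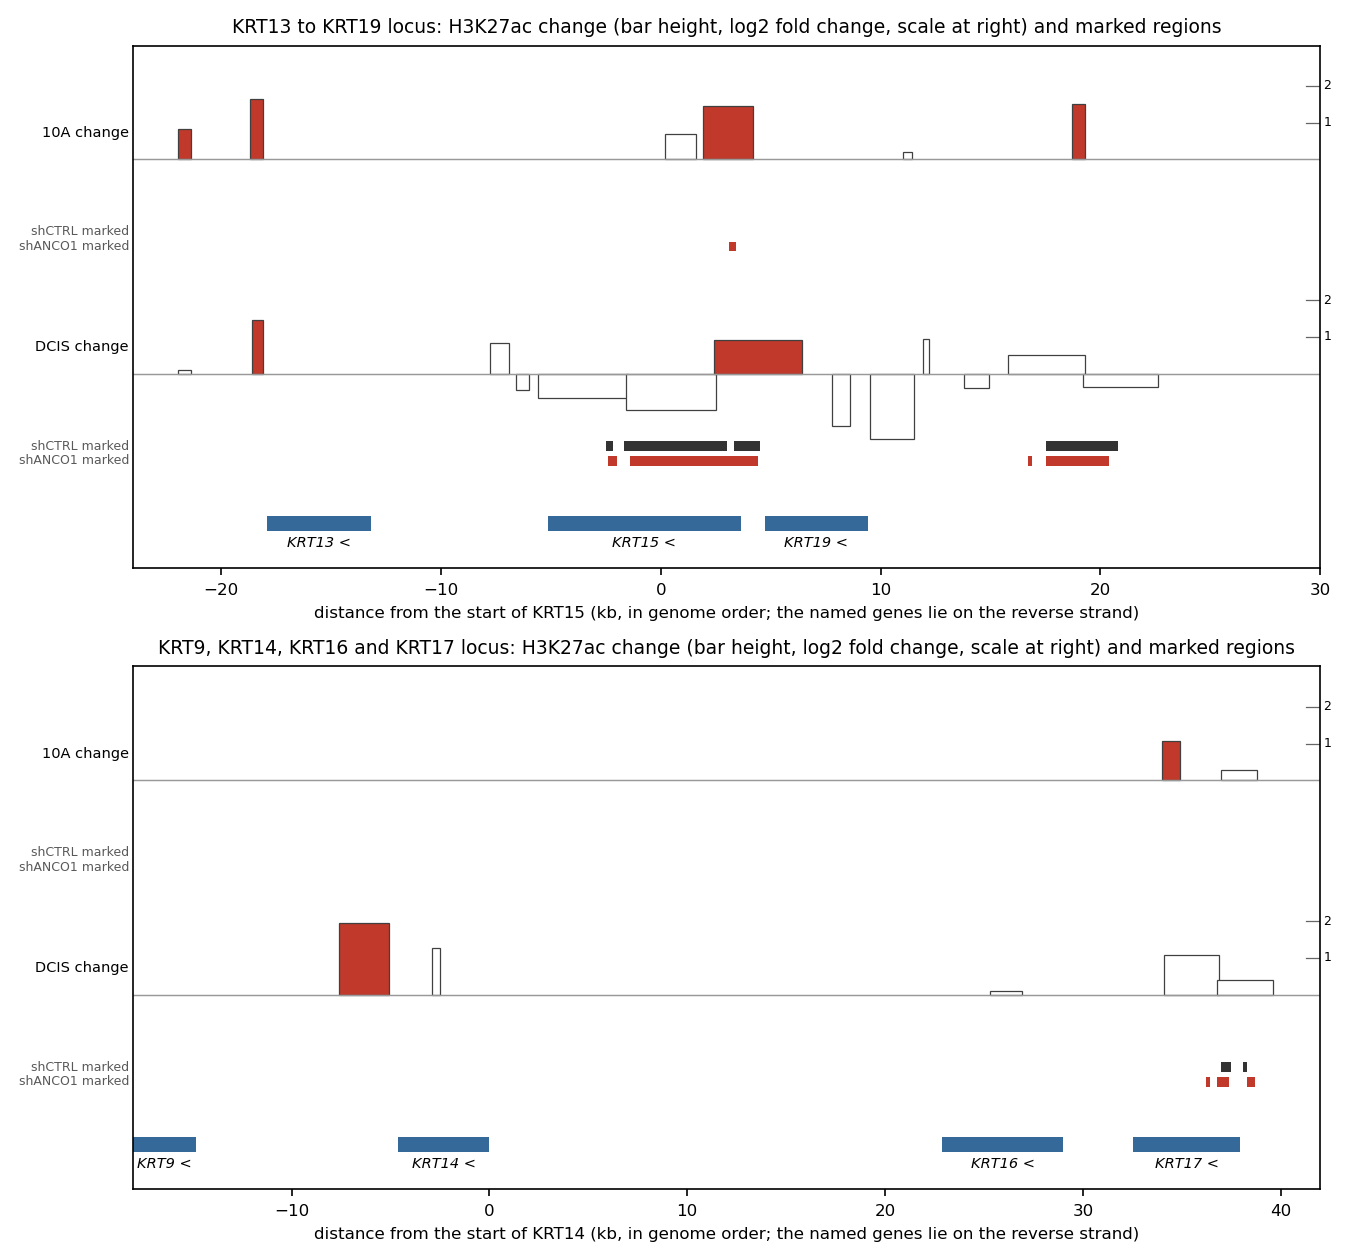
Maps of the KRT13 to KRT19 locus (upper plot) and the KRT9 to KRT17 locus (lower plot) by distance from the start of KRT15 or KRT14 (kb). Bars are regions tested for change, with height as log2 fold change, red where called up and white where not called; thin marks under them are regions enriched over input. Upstream of KRT15 both lines have a red bar, of 1.44 in 10A and 0.91 in DCIS, and the red bar of 1.94 left of KRT14 is in DCIS alone.

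Of the regions of activated keratins 4 of 9 were called up in 10A (median 0.76), against 43.6% of all regions. In DCIS 2 of 9 were (median 0.63), against 23.6% of all regions. KRT6A and KRT6B, type II proteins induced at wound edges, each had a region called up in both lines, which for KRT6B was a distant element. That element, chr12:52440501-52443600 in 10A and chr12:52440601-52443000 in DCIS, lies between KRT75 and KRT6B, with its near edge 6130 bp upstream of the KRT75 start in 10A and 6230 bp in DCIS. In DCIS it rose by 2.16 on the log2 scale (1.64 above the line's median) at an FDR of 5.22e-08, and all 23 of its windows were up. In 10A it rose by 1.49 (0.73 above the line's median) at an FDR of 0.00263, with 26 of 30 windows up. It was enriched over input in both groups of 10A, over 1.0 kb in shCTRL and 2.0 kb in shANCO1. In DCIS it was enriched in shANCO1 alone, over 1.5 kb with a log2 enrichment of 6.21. KRT75, a hair follicle and nail bed keratin, had no other called region in either line.

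At the KRT6B start nothing was called. The nearest region stood at 0.39 in 10A (FDR 0.661) and at 1.11 in DCIS (FDR 0.551). KRT6A rose at its own start: chr12:52491301-52494600 had a log2 fold change of 0.88 in 10A (0.12 above the line's median, FDR 0.0137, 23 of 30 windows up), and chr12:52492201-52495100 had 1.37 in DCIS (0.85 above the median, FDR 0.0297, 11 of 28 windows up and 1 down). The next region upstream was called up in 10A, at 1.05 with an FDR of 0.031, and stood at 0.63 in DCIS with an FDR of 0.45. Of the 50-base stretches of the KRT6A start region, 16.3% in 10A and 15.3% in DCIS also stand elsewhere in the keratin clusters, as do 23.3% at the KRT6B start in DCIS, so reads there may have been placed on either copy. KRT6C, the remaining near-identical copy, had no region in any table. None of the 50-base stretches of the KRT75-KRT6B element recurred.

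KRT16 and KRT17, type I partners of KRT6, shared a region inside KRT17, chr17:41620901-41621800 in 10A, called up at 1.08 with an FDR of 0.0115 (7 of 8 windows up). In DCIS the overlapping region had a like value of 1.07 with an FDR of 0.134. The region over the KRT17 start was not called in 10A (0.29, FDR 0.71) or in DCIS (0.41, FDR 0.716). KRT17 had no enriched sequence in 10A, and 0.7 kb in DCIS shCTRL and 1.2 kb in DCIS shANCO1. The region over the KRT16 start was tested in DCIS alone, at 0.10 with an FDR of 0.967, and 10.1% of its 50-base stretches recurred elsewhere in the clusters.

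Of the simple and luminal keratin regions 12 of 20 were called up in 10A, against 61.7% of keratin regions and 43.6% of all regions. Their median was 0.92, beside 0.76 over all regions. In DCIS 1 of 25 was called up, against 15.6% of keratin regions and 23.6% of all regions. That region, upstream of KRT15, is also counted among the basal ones. The luminal median in DCIS was 0.08, beside 0.52 over all regions. KRT7, a type II keratin of ducts and glands, had 5 of 10 regions called up in 10A. The 2 broad regions that flank and cover its start, chr12:52228401-52233100 and chr12:52233001-52237600, stood at 1.06 and 0.72 (FDR 0.00182 and 7.02e-04), with 27 of 46 and 33 of 45 windows up. The second of these values lay 0.05 under the line's median. In DCIS none of 10 was called, and the same places stood at 1.28 and 0.23 (FDR 0.276 and 0.909). The gene was marked broadly throughout, over 5.0 and 8.6 kb in 10A shCTRL and shANCO1 and 6.5 and 6.8 kb in DCIS.

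KRT8, the type II keratin of simple epithelia, had 5 of 6 regions called up in 10A. The region over the canonical start, chr12:52903101-52905600, stood at 0.91 (FDR 0.00129, 17 of 21 windows up) and was enriched in shANCO1 but not in shCTRL. A larger value stood just before the upstream RefSeq start shown above, chr12:52926501-52927700, with 1.38 (0.62 above the line's median, FDR 3.4e-04, 10 of 11 windows up). Enriched sequence named for KRT8 covered 0.9 kb in 10A shCTRL and 5.1 kb in shANCO1. In DCIS it covered 8.1 and 9.0 kb, and none of the 6 regions was called, with -0.06 over the canonical start (FDR 0.985). KRT18, its type I partner, was called up over its start in 10A, at 0.94 with an FDR of 0.00432. In DCIS the region sharing most bases with it stood at -1.18 (FDR 0.559) and the region over the start at 0.75 (FDR 0.654), so neither was called.

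KRT19, a type I keratin of luminal cells, was not called at its own start in either line. Its calls in 10A were the KRT15 upstream region, shared with it, and a region 9293 bp upstream of its start, chr17:41537601-41538200, at 1.51 (0.74 above the line's median, FDR 0.00291, 2 of 5 windows up). The region nearest its start in 10A stood at 0.20 with an FDR of 0.634. In DCIS the region beside the start, chr17:41528401-41530400, had the lowest log2 fold change of any keratin region, -1.76, but missed the threshold with an FDR of 0.0911 and 2 of 19 windows down. A region within the gene, chr17:41526701-41527500, stood at -1.41 with an FDR of 0.121 and 4 of 6 windows down. KRT19 also had the most enriched sequence of any keratin in DCIS, 9.5 kb in shCTRL and 9.3 kb in shANCO1, and in 10A it had none in shCTRL.

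Of the regions of other epithelial keratins 11 of 13 were called up in 10A (median 1.17), against 43.6% of all regions. In DCIS 4 of 11 were (median 1.04), against 23.6% of all regions. KRT80, a type II keratin of differentiating epithelia, had more regions called up than any other keratin gene in both lines. In 10A these were 9 of its 10 regions, from 26514 bp downstream of its start, beyond the 3′ end, to 9387 bp upstream of it. The region over the start, chr12:52191001-52195300, whose middle is shown above, had a log2 fold change of 1.48 (0.71 above the line's median) at an FDR of 7.31e-06, with 21 of 41 windows up. The next region upstream, chr12:52197101-52200000, stood at 0.97 with an FDR of 1.21e-04 and 26 of 28 windows up. In DCIS 4 of 10 were called up. The largest of these were chr12:52185401-52189000, at 1.85 (1.33 above the line's median, FDR 0.00228), and chr12:52183401-52184400, at 1.84 (FDR 0.00727). A further one, chr12:52175301-52176900, in an intron, stood at 1.34 (FDR 0.00185) with 14 of 15 windows up.

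The region over the KRT80 start in DCIS was not called (1.37, FDR 0.0638), nor was the next one upstream (0.95, FDR 0.217) or the one beyond (-0.69, FDR 0.819). The calls in 10A thus ran from beyond the gene across its start and upstream, and those in DCIS lay downstream of the start, within the gene and beyond its 3′ end. Enriched sequence grew from 0.6 to 4.8 kb in 10A and from 0.7 to 2.3 kb in DCIS. The noncoding gene LINC00592 overlaps the start region, and H3K27ac does not tell the genes apart.

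**Figure D5:**
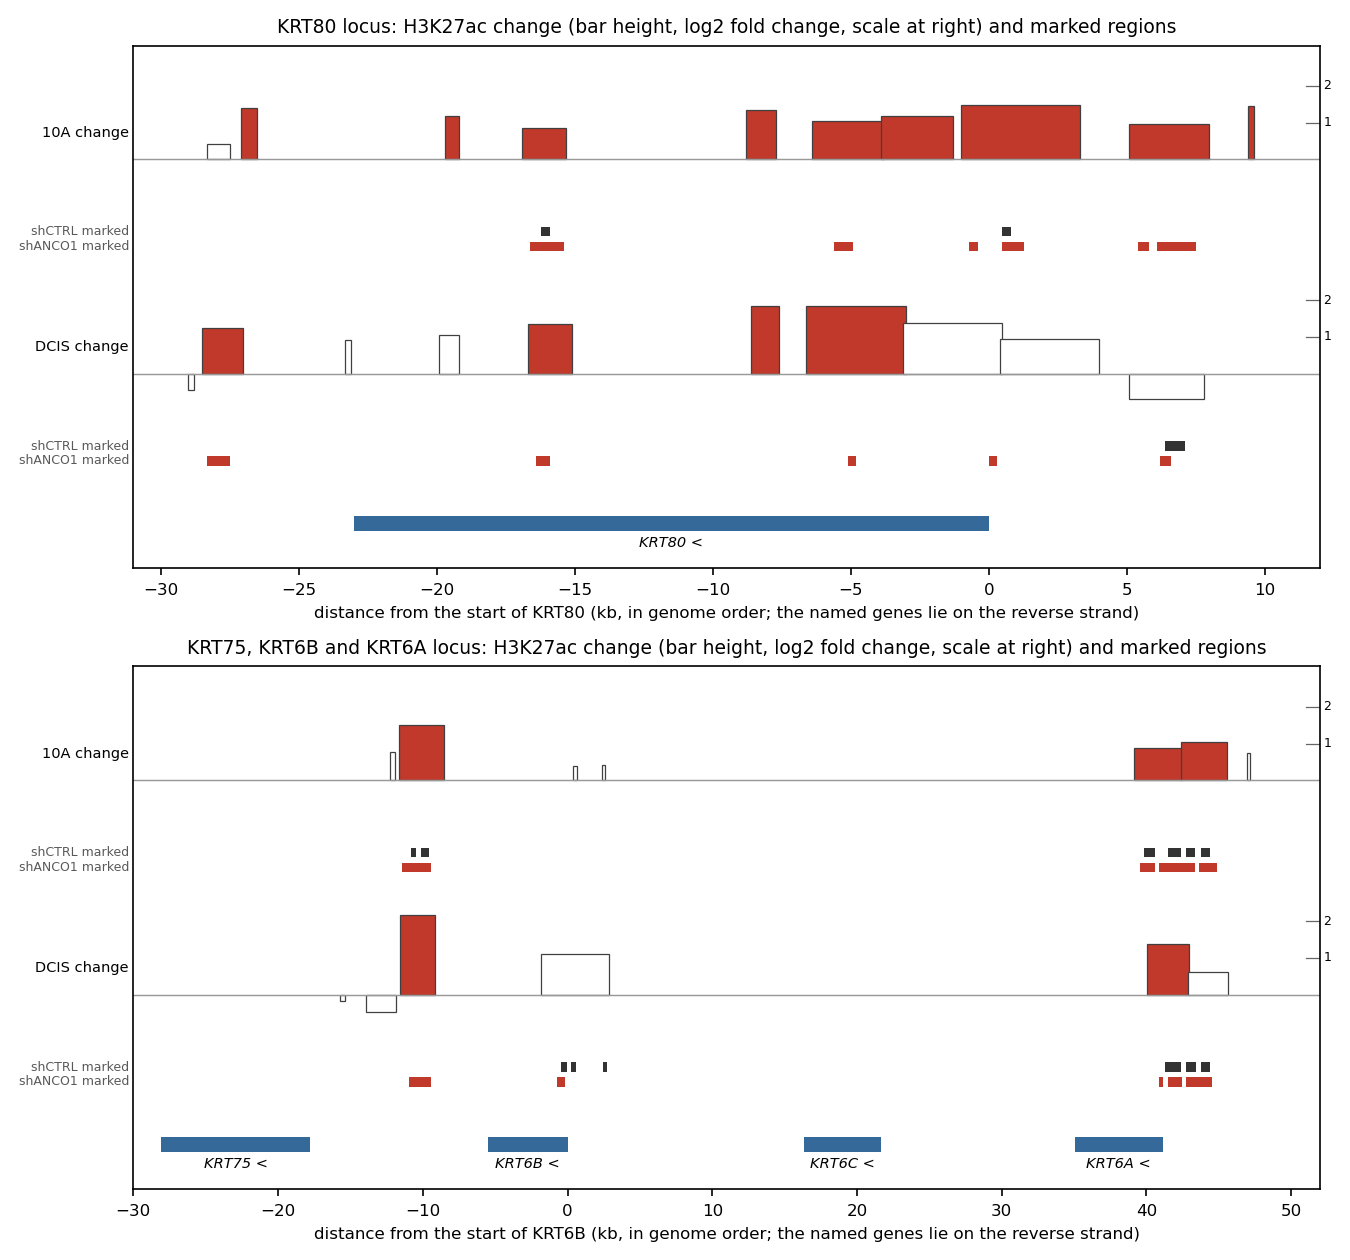
Maps of the KRT80 locus (upper plot) and the KRT75 to KRT6A locus (lower plot) by distance from the start of KRT80 or KRT6B (kb). Bars are regions tested for change, with height as log2 fold change, red where called up and white where not called; thin marks are regions enriched over input in shCTRL (black) and shANCO1 (red). The red bar between KRT75 and KRT6B stands in both lines, at 1.49 in 10A and 2.16 in DCIS, where no black mark lies under it.

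Of the other epithelial keratins, KRT78 and KRT79, type II keratins of stratified and sebaceous epithelia, shared a single-window region called up in 10A at 1.30 (FDR 0.00456). A second KRT78 region in 10A stood at 0.96 with an FDR of 0.119. Neither gene had a region in DCIS. The 1 region naming KRT222 in each line covers the start of SMARCE1, a chromatin remodelling subunit, and not that of KRT222, which lies 16077 bp from it in 10A. It stood at 0.66 in 10A (FDR 0.00496, 0.11 under the line's median) and at 0.67 in DCIS (FDR 0.329).

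Of the mucosal and corneal regions 3 of 5 were called up in 10A (median 0.83), against 43.6% of all regions. In DCIS 1 of 5 was (median 0.10), against 23.6% of all regions. KRT13, the type I keratin of stratified mucosa, had the largest increase of any keratin region in 10A. The stretch just beyond its 3′ end, chr17:41500201-41500800, stood at 1.65 (0.88 above the line's median, FDR 4.43e-04) with all 5 windows up. In DCIS chr17:41500301-41500800 stood at 1.46 (0.94 above the median, FDR 0.0137) with 3 of 4 windows up. Neither overlapped a region enriched over input, and the same stretch also lay within 10 kb of KRT36, a hair keratin. A further region between KRT36 and KRT13 was called up in 10A, at 0.83 with an FDR of 0.0277, and stood at 0.10 in DCIS with an FDR of 0.932. KRT3, of the cornea, and KRT4, the partner of KRT13, shared 1 region in 10A, upstream of KRT3, called up at 1.21 with an FDR of 0.0152 and all 6 windows up. The 2 regions naming KRT24 in 10A stood at 0.21 and 0.36 and were not called.

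The suprabasal keratin KRT10, a type I protein of differentiating epidermis, gave the only keratin region called down. In DCIS chr17:40827701-40829000, 5087 bp upstream of its start, stood at -1.71 (-2.23 relative to the line's median), with an FDR of 0.0457 and 2 of 10 windows down. The other 2 KRT10 regions of DCIS, at -1.14 and -0.94, were not called (FDR 0.127 and 0.579). Both KRT10 places that were enriched over input in DCIS shCTRL, 0.9 kb in all, had no enriched region in shANCO1. In 10A the same places stood at 1.12 (FDR 0.0646) and 0.35 (FDR 0.639), and enriched sequence covered 1.0 kb in shCTRL and 2.1 kb in shANCO1. KRT10-AS1 lies over the upstream element, so the mark cannot be assigned to either gene. KRT1, the type II partner of KRT10, had no region in any table.

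Of the hair shaft regions 8 of 14 were called up in 10A (median 0.95), against 43.6% of all regions. In DCIS 2 of 15 were (median 0.53), against 23.6% of all regions. KRT81 and KRT86, type II hair shaft genes that overlap each other, were among the most marked keratins in every group. Enriched sequence named for KRT81 covered 5.3 kb in 10A shCTRL, 7.5 kb in 10A shANCO1, 7.2 kb in DCIS shCTRL and 7.4 kb in DCIS shANCO1. In each group part of it overlapped KRT86 and only flanked KRT81. In 10A 3 of the 4 regions named for KRT81 were called up, of which 1 overlapped that gene. The lowest FDR, 4.61e-04, was at chr12:52278001-52280600 with 1.28 (0.52 above the line's median, 14 of 23 windows up), which overlapped KRT86 alone. In DCIS none was called, and the region of lowest FDR there, also over KRT86 alone, stood at 1.00 (FDR 0.125). Of the 50-base stretches of the region inside KRT81 nearest its start, 24.9% in 10A and 17.1% in DCIS recurred elsewhere in the clusters. KRT83 was called up at different places, at a single window 16498 bp downstream of its start in 10A (1.18, FDR 0.00899) and at a flank 5703 bp upstream in DCIS (1.49, FDR 0.0305, 1 of 10 windows up), where 10A stood at -0.65 (FDR 0.121). Of the inner root sheath regions, which include those of KRT75, 1 of 2 was called up in 10A, against 43.6% of all regions. In DCIS 1 of 4 was, against 23.6% of all regions. KRT71 had 1 region, in DCIS, at -0.22 with an FDR of 0.836.

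The remaining 28 keratin genes had no region in any table used here. They were KRT1, KRT2, KRT6C, KRT12, KRT20, KRT23, KRT25 to KRT28, KRT31, KRT32, KRT33A, KRT33B, KRT34, KRT35, KRT37 to KRT40, KRT72 to KRT74, KRT76, KRT77, KRT82, KRT84 and KRT85.

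Genes that work with keratin filaments are given beside the same shares of all regions. Of 15 filament partners, such as the plakins and plakophilins that anchor keratins and the transglutaminases that cross-link them, regions called up numbered 45 of 106 in 10A (42.5%, near the 43.6% of all regions), with 1 down, and 28 of 93 in DCIS (30.1%, against 23.6%), with 0 down. The medians were 0.75 and 0.83. PKP1, plakophilin 1 of desmosomes, had all 9 of its regions called up in DCIS, with 1.89 at the lowest FDR of 2.61e-05, and 1 of 7 in 10A. JUP, plakoglobin, stood at 2.31 in DCIS (FDR 4.61e-05) and at 1.00 in 10A (FDR 0.00649) by its region of lowest FDR.

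Of 16 other intermediate filament genes, regions called up numbered 23 of 40 in 10A (57.5%) and 14 of 38 in DCIS (36.8%), with none down and medians of 0.81 and 0.86. VIM, the mesenchymal filament vimentin, was called up in 10A at 1.39 (FDR 6.37e-05), and its lowest FDR in DCIS was 0.5 at -0.50. Of 12 regulators of keratin genes, regions called up numbered 18 of 65 in 10A (27.7%) and 15 of 78 in DCIS (19.2%), both under the share of all regions, and 0 and 8 (10.3%, against 4.86%) were called down. TP63, the basal cell regulator, had 3 of 19 regions called up in 10A and 7 of 13 in DCIS. Among the 8 regions down in DCIS, 3 each named GRHL3 and SOX9 and 2 named EHF. Keratin-associated protein genes had 1 region, in 10A, called up at 1.28.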

How the data were processed

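H3K27ac ChIP-seq was done on 12 immunoprecipitated libraries beside 12 input libraries, in 8 groups of 3 taken from the GEO labels. The authors' methods describe alignment of the reads by BWA and Rsubread on GRCh38, deduplication in SAMtools, window testing in csaw and gene placement with ChIPpeakAnno. Window filter, scaling between libraries, treatment of reads that match several places and merging distance were not given in the sources used here. The submitters' processing notes also name FastQC and HOMER.

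The deposited log2 fold change is that of 1 representative window per region, and the deposited p-value and FDR combine all windows of a region over its table. The tables hold the authors' comparison of whole groups and nothing else, so these columns are the measurement itself, used as a peak list would be. Whether replicates were separate cultures was not stated.

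Tables were read with python 3.11.15, pandas 2.3.3 and numpy 2.4.6. No new test was run: regions were selected by gene symbol, called at an FDR under 0.05, counted, and compared by an overlap of at least 1 bp. Promoter, exon and intron codes were taken as the tables give them; starts are those of canonical GENCODE transcripts on GRCh38, where all 24 chromosomes of the tables were found and no region ran past a chromosome end. The selection code was tested on simulated tables. Named were the 5 lowest-FDR regions per direction and line, the 3 largest changes with at least 5 windows, among called ones, and keratins on a fixed list by their lowest-FDR region and the region nearest the start. The members and lists were chosen with earlier results of these data known. One marker gene of the lists is not reported here.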

Additional observations from a re-analysis of the deposited data

How the results depend on the processing

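No paired analysis was possible because the tables hold 1 value per region for a whole group and none per library; leaving out a replicate could not be run for the same reason. Of the counts and medians recomputed under other settings, 43 stayed within 1.5 times the count or within 0.1 of the median given above, and 15 did not. At an FDR under 0.01 the keratin regions called up were 24 in 10A and 6 in DCIS, and 0 were called down in DCIS; at an FDR under 0.1 there were 2 down in DCIS. Asking besides for a log2 fold change at least 1 above the line's median left 0 up in 10A and 4 in DCIS. Regions naming keratins and no other gene gave 20 up in 10A, 5 up and 0 down in DCIS, and counting only overlapped keratins gave 0 down in DCIS. With at least 5 windows, enriched regions fell to 14 in 10A shCTRL and 18 in each DCIS group. The DCIS median became 0.63 over overlapped keratins and also 0.63 with at least 5 windows. The keratins on the fixed list were also read from the region nearest the start in place of the lowest FDR. Of these values 19 kept their sign and side of the threshold, and 9 kept their sign but lost their call. A further 4 in DCIS changed sign: KRT15 to -0.97, KRT8 to -0.06, KRT18 to 0.75 and KRT19 to -1.76. Among those 4, KRT15 and KRT19 lost their call as well. The fold changes cannot be checked against depth, and no spread between libraries is known.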
